A study of Mus musculus with 8 samples.

Results

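Granins and prohormone processing enzymes are the proteins with which endocrine cells build dense core secretory granules and cut hormone precursors into active peptides. The 10 genes described here were chosen by name from the deposited count tables, which hold 23366 gene symbols: Chga, Chgb, Scg2, Scg3 and Vgf of the granin family, the prohormone convertases Pcsk1 and Pcsk2, their binding proteins Scg5 and Pcsk1n, and the carboxypeptidase Cpe. All 10 were read in at least 6 of the 8 libraries and passed the filter on low counts.

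In the gut these genes are known as products of enteroendocrine cells, the scattered hormone-secreting cells of the epithelium. Granins aggregate with calcium in the trans-Golgi network and pack peptide hormones into granules. Inside the granule, PC1/3 (from Pcsk1) and PC2 (from Pcsk2) cut the precursor after pairs of basic residues, and carboxypeptidase E (from Cpe) then removes the basic residues left at the new end. The same machinery is used by neurons and by other endocrine tissues, so that its genes mark a secretory route and not the gut alone.

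RNA was sequenced from small samples of sorted mouse intestinal epithelium to compare animals with and without the transcription factor gene Sox4. Control mice carried Sox4fl/fl alleles only. Sox4cKO mice were Sox4fl/fl:vilCre+/-, in which the villin promoter drives Cre in the intestinal epithelium from embryonic life on, so that the loss of Sox4 was neither acute nor limited to a cell type of the epithelium. All animals were male littermates of 6 weeks, and both genotypes carried the floxed alleles. From each animal, CD326+ epithelial cells were sorted into a CD44- gate enriched for villus (CD44minus) and a CD44+ gate enriched for crypt (CD44plus), 50000 cells to a library. Every combination of genotype and gate (4 groups) had 2 libraries from 2 animals, and p-values measure the spread between these few animals.

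The libraries were unequal in depth and in background, which bears on every value of the CD44minus gate. Reads counted to genes numbered 886194 to 6963345 in CD44minus and 6007554 to 13238050 in CD44plus. Olfactory and vomeronasal receptor genes (1436 symbols), which are read mainly in sensory neurons of the nose, were used as a measure of background. It was taken as receptor reads per coding kb times the exon length of each gene. On that scale it would make up 6.02% to 18.2% of the gene reads in 3 CD44minus libraries. It would be 0.819% in Sox4cKO CD44minus replicate 2 and 0.299% to 1.58% in CD44plus. That Sox4cKO CD44minus replicate also stood apart in its villus enterocyte markers (8 of 8 read, 40989 summed CPM against 7819 in the other replicate of its group). CPM here are reads over the library's gene reads, rescaled by trimmed mean of M values (TMM) factors. The gap rests in part on those factors, since with gene reads alone as the scale it was 21606 against 13434. CD44plus libraries held crypt markers at 6662 to 8861 summed CPM against 268 to 609 in CD44minus, and epithelial markers were read in all 8 libraries (2525 to 14675 summed CPM). Sox4 itself lay at 128 and 120.2 CPM in control CD44plus against 17.8 and 25.7 in Sox4cKO, so it was reduced 5.71-fold but still read. In CD44minus it gave only 10 and 21 reads in control and 4 and 1 reads in Sox4cKO.

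RefSeq's promoter table (GRCm38.p6, 250 bases before to 50 bases after each annotated start) held 8 of the 10 genes, the others being Cpe and Vgf. The sequences are shown because granin and convertase promoters are known for a cyclic AMP response element (CRE). The motif TGACGTNA, searched on both strands, was found in 4 of the 8 promoters, against 2.93% of 32851 promoters of the same length. A stretch of 30 bases around each match is given 5′ to 3′ on the gene's strand, with the motif in capitals. The stretches lie at chr12:102554886-102554915 (Chga, plus strand), chr2:132781559-132781588 (Chgb, plus strand), chr1:79440076-79440105 (Scg2, minus strand) and chr13:75089768-75089797 (Pcsk1, plus strand).
Chga: gggcggtcctaTGACGTAAtttcctgggtg
Chgb: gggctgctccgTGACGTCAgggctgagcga
Scg2: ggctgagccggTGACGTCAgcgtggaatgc
Pcsk1: ccaggtagatcTGACGTCAagagatggctt
The first base of the motif lay 44 bases before the RefSeq start in Chga, 72 in Chgb, 68 in Scg2 and 78 in Pcsk1. In GENCODE's annotation the Chga and Pcsk1 matches lie outside the exons of their gene, whereas those of Chgb and Scg2 lie within an annotated exon, because GENCODE puts the gene's start further upstream. The palindrome TGACGTCA, which is contained in the first motif, was present in 3 of 8 promoters (Chgb, Scg2 and Pcsk1) and in 1.79% of all promoters.

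The shorter core TGACG, which each of these matches also contains, was found in 7 of 8 promoters, with Scg3, Pcsk2 and Scg5 in addition, and in 20.8% of all promoters. In Scg3 (chr9:75684057-75684156, minus strand) and Pcsk2 (chr2:143546033-143546132, plus strand) it stands in the last 100 bases before the start. These are given whole with the core in capitals, which in Pcsk2 is read from the other strand.
Scg3: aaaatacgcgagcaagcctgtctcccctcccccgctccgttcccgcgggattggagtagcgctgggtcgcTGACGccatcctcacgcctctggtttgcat
Pcsk2: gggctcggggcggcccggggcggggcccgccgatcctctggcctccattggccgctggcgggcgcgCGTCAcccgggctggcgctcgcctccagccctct
The core ACAAAG, which SOX family factors are known to bind, was present only in Scg3 among the 8 promoters and in 18.7% of all. The E-box CAGNTG was present in 6 of 8 and in 51.4% of all. A match describes the letters in this window and is not a measurement of binding.

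**Figure D1:**
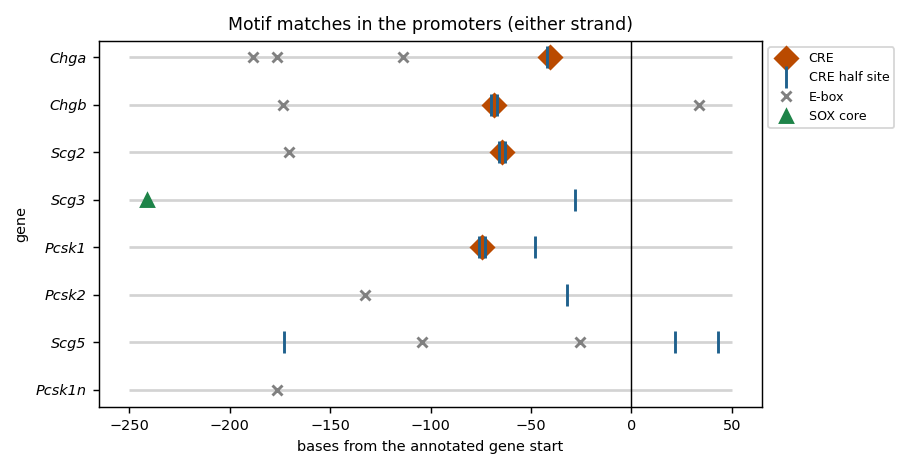
Motif matches on either strand in the 300-base promoter windows of 8 genes (rows), by distance from the annotated start in bases (horizontal axis, start at 0). Diamonds mark the CRE motif, which stands between 44 and 78 bases before the start in 4 genes; vertical ticks mark its shorter core, crosses the E-box and the triangle the SOX core.

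Chgb, the gene of chromogranin B, was the most abundant of the 10 in crypt-enriched cells, and Chga, the gene of chromogranin A and a common endocrine marker, was second. Per kilobase of exon, Chgb stood at 913 to 974 CPM in the control CD44plus libraries and Chga at 301 to 336 CPM. Cpe followed at 31.7 to 38.3 CPM per kb, then Scg2 at 14.8 to 19.1, Scg3 at 9.37 to 12, Pcsk1 at 6.74 to 8.17 and Scg5 at 6.5 to 6.58. The lowest levels per kilobase were those of Pcsk1n (2.53 to 2.83 CPM), Vgf (1.36 to 2.45 CPM) and Pcsk2 (0.387 to 1.06 CPM). No neighbours in this order overlapped between the 2 control libraries, although with 2 libraries the spread is poorly known and Pcsk1 and Scg5 are close. Of the 2 convertases, the PC1/3 gene was thus the more abundant in crypt-enriched epithelium. Chga and Chgb together supplied 93.9% to 96.6% of the reads of the 10 genes in the 4 CD44plus libraries, so a sum over the genes there is nearly the sum of these 2.

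Summed over the 10 genes, control CD44plus libraries held 3328 and 3446 CPM and those of Sox4cKO 970.3 and 1261 CPM. In CD44minus the sums were 160.3 and 192 CPM for control, 193 and 142 for Sox4cKO. The genotypes were thus separate in the crypt-enriched gate and overlapped in the villus-enriched gate. In bulk libraries, fewer endocrine cells and less RNA of these genes per cell cannot be told apart.

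**Figure D2:**
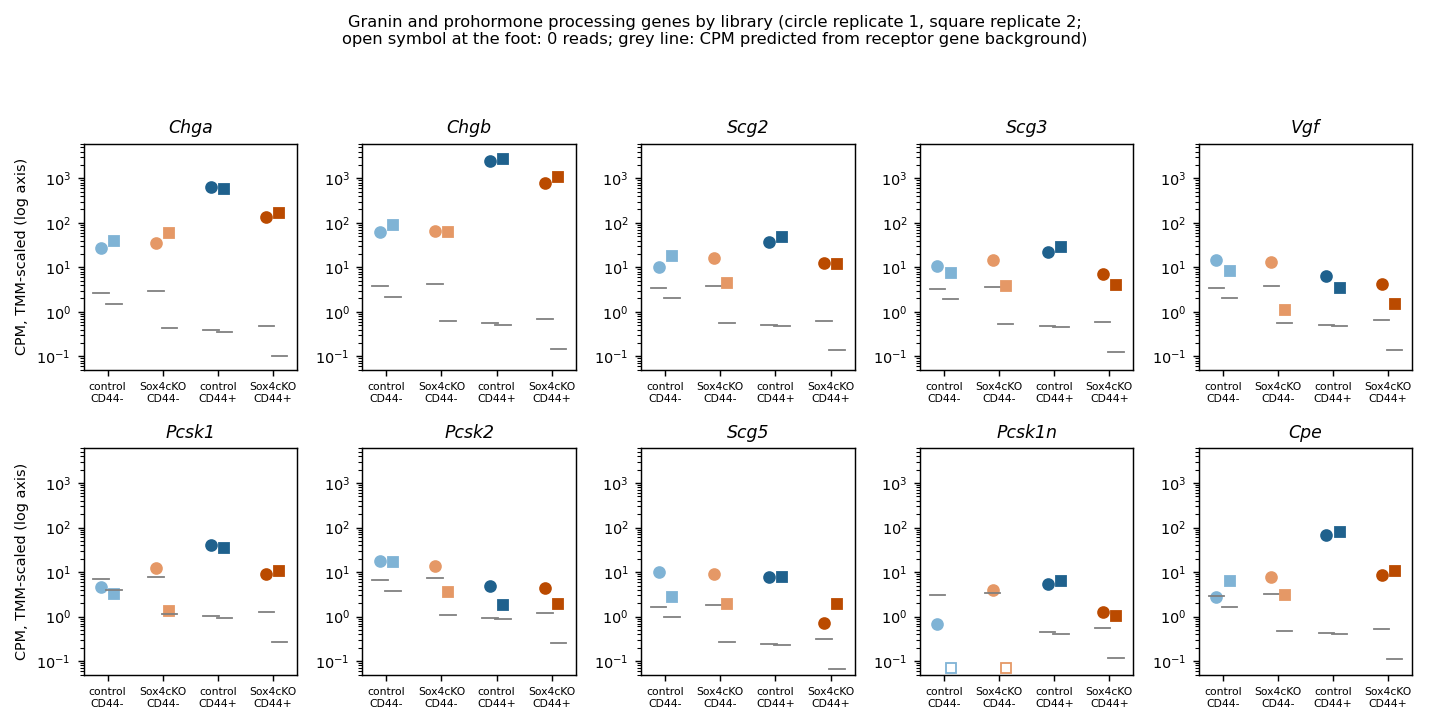
Level of each gene in the 8 libraries, in CPM scaled by trimmed mean of M values (log axis), by genotype and CD44 gate; circles are replicate 1, squares replicate 2, open symbols 0 reads, and grey lines the level predicted from receptor gene background. Chgb in control CD44plus stands at 2503 and 2669 CPM, whereas Pcsk1 and Pcsk1n in CD44minus lie near their grey lines in most libraries.

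In the CD44plus gate all 10 fitted genotype differences were negative, with a median log2 fold change of -1.95 against a median near 0 over all genes. For 8 of the 10 genes both Sox4cKO libraries lay below both control libraries, which held for 16.4% of all 20427 genes tested. The exceptions were Vgf and Pcsk2. No member passed edgeR's quasi-likelihood test on all 8 libraries (adjusted p = 1 for each, by Benjamini-Hochberg over all genes), and 0% of all genes did. At an unadjusted p under 0.05 that test counted 6 of 10 members (Chga, Scg2, Scg3, Pcsk1, Scg5 and Cpe), against 0.627% of all genes, and DESeq2 and limma-voom called 0 members. That unadjusted count was 3 with library totals as the scale, against 159 of 20427 genes. Leaving out any 1 of the 8 libraries leaves 1 library in a group. The number passing then moved with the library left out, for the members and for all genes. The members' median log2 fold change in those fits ran from -2.02 to -1.93. The fit of all 8 libraries shares one estimate of the spread with the CD44minus libraries, and its biological coefficient of variation was 0.616. In a fit of the 4 CD44plus libraries alone it was 0.335, and edgeR called 4 of 10 members lower (Chga, Chgb, Pcsk1 and Cpe), against 0.0997% of 17052 genes. Each of these 4 genes also stayed called in the 4-library fit when any 1 library was left out, where 6 to 8 members passed, against 0.274% to 3.18% of all genes called lower, and the lone library of a group is assumed to vary like the others.

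Among the granins, Chga (chr12:102554969-102565028) was read at 633 and 566 CPM in the control CD44plus libraries, against 132 and 168 in those of Sox4cKO. The groups were far apart, and every library had at least 915 reads. The level was 3.99-fold lower in Sox4cKO (log2 fold change -2.0, SE 0.75, 95% interval -3.57 to -0.42 in the fit of 8 libraries). With the CD44plus libraries alone the SE was 0.17 and edgeR's adjusted p was 0.0186. Chgb (chr2:132781278-132795079) gave 2503 and 2669 CPM for control and 789 and 1049 CPM for Sox4cKO, without overlap. It was 2.81-fold lower (-1.49, SE 1.00, interval -3.59 to 0.61), and the 4-library fit gave an SE of 0.18 and an edgeR adjusted p of 0.0387.

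Scg2 (chr1:79434669-79440120), the gene of secretogranin II, from which the peptide secretoneurin is cut, gave 37.3 and 48 CPM for control CD44plus, 12.7 and 11.9 CPM for Sox4cKO. The Sox4cKO libraries were close to each other and well below both controls. The log2 fold change was -1.79 (SE 0.61, interval -3.07 to -0.51), and in the 4-library fit edgeR's adjusted p was 0.0661. Scg3 (chr9:75643189-75684056), whose product binds chromogranin A and cholesterol-rich granule membrane, gave 22.3 and 28.7 CPM for control, 7.23 and 3.98 CPM for Sox4cKO. The groups did not overlap, but the Sox4cKO values rest on 50 and 42 reads. The log2 fold change was -2.19 (SE 0.73, interval -3.72 to -0.65), with an edgeR adjusted p of 0.169 in the 4-library fit.

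Vgf (chr5:137026392-137033351), a granin-like gene induced by nerve growth factor, did not follow the other granins. Its control CD44plus libraries held 6.25 and 3.47 CPM and its Sox4cKO libraries 4.34 and 1.52 CPM, so the groups overlapped. Its log2 fold change of -0.75 (SE 1.09) had an interval from -3.04 to 1.55, which includes both no difference and the size seen in Chga.

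Of the convertases, Pcsk1 (chr13:75089826-75134861) stood at 41.2 and 34 CPM for control CD44plus, at 9.11 and 10.8 CPM for Sox4cKO. Its 2 groups were apart, with 461 and 186 reads against 63 and 114. The level was 3.77-fold lower in Sox4cKO (log2 fold change -1.91, SE 0.74, interval -3.46 to -0.37), and edgeR's adjusted p in the 4-library fit was 0.0494, close to the threshold of 0.05. Pcsk2 (chr2:143546156-143816285) gave 5 and 1.83 CPM for control, 4.34 and 1.89 CPM for Sox4cKO. Control replicate 2, with 10 reads, did not exceed the predicted background of 4.86 reads by its Poisson interval (4.8 to 18.4 reads). The log2 fold change was -0.16 (SE 0.94, interval -2.13 to 1.81), and its sign was positive without control CD44plus replicate 1 (0.75) or without Sox4cKO CD44plus replicate 2 (0.32). Antisense genes overlap Pcsk2 in the annotation, and whether counting used the strand is not given in the sources used here.

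The binding proteins of the convertases were rare transcripts. Scg5 (chr2:113776362-113829121), whose product 7B2 is the chaperone that PC2 needs to mature, gave 7.95 and 7.85 CPM for control CD44plus, 0.723 and 1.89 CPM for Sox4cKO. The Sox4cKO values are 5 and 20 reads, and the first of them was not above its predicted background. The log2 fold change was -2.56 (SE 1.12, interval -4.91 to -0.20), and edgeR's adjusted p in the 4-library fit was 0.636. Pcsk1n (chrX:7919822-7924410), whose product proSAAS inhibits PC1/3, gave 5.54 and 6.21 CPM for control, 1.3 and 1.04 CPM for Sox4cKO. The groups were apart on 62 and 34 against 9 and 11 reads, and the log2 fold change of -2.31 (SE 1.56) had an interval from -5.60 to 0.98. Exons of Eras lie on the other strand over part of Pcsk1n, and Eras was read at most 5 times in a library.

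Cpe (chr8:64592542-64693054) had the most negative estimate of the 10. Control CD44plus libraries held 67 and 81.1 CPM and Sox4cKO libraries 8.68 and 10.4 CPM, on 750 and 444 against 60 and 110 reads. The level was 7.73-fold lower (log2 fold change -2.95, SE 0.57, interval -4.15 to -1.75), with an unadjusted edgeR p of 0.000133. In the 4-library fit the SE was 0.22 and edgeR's adjusted p 0.0186. With the replicate number as a block it also passed in the fit of 8 libraries (edgeR adjusted p = 0.0173). Replicate numbers are shared between genotypes by name only.

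**Figure D3:**
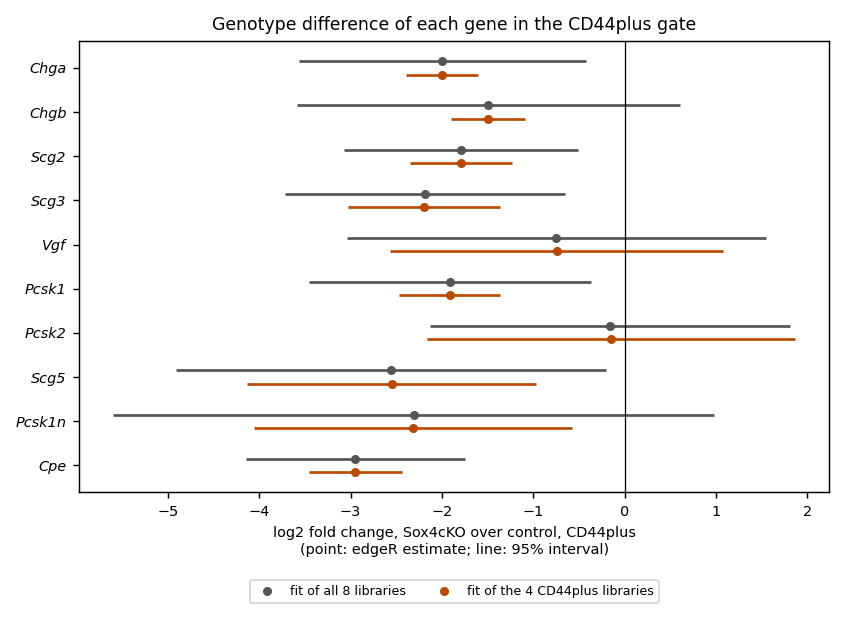
Log2 fold change of Sox4cKO over control in the CD44plus gate for each gene (horizontal axis; rows are genes), with 95% intervals, from the fit of all 8 libraries (grey) and of the 4 CD44plus libraries (orange). The estimates of the 2 fits nearly coincide while the intervals of the first are wider, and Vgf and Pcsk2 are the 2 genes whose 4-library interval crosses 0.

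The genes did not all lie lower by the same factor, which can be read within a library, without scaling, as reads per 1000 Chgb reads. Cpe stood at 26.8 to 30.4 per 1000 Chgb reads in control CD44plus and at 9.93 to 11 in Sox4cKO, a ratio 2.73-fold lower. For Chga the ratio was 212 to 253 in control and 160.2 to 168 in Sox4cKO, 1.41-fold lower. Relative to chromogranin B, the carboxypeptidase transcript was thus scarcer in the Sox4cKO libraries by a larger factor than the chromogranin A transcript. Scg5 went from 2.94 to 3.18 in control to 0.916 to 1.81 in Sox4cKO (2.38-fold lower), Pcsk1n from 2.21 to 2.33 to 0.993 to 1.65 (1.77-fold lower) and Pcsk1 from 12.7 to 16.5 to 10.3 to 11.5 (1.33-fold lower). The ranges of Scg2, Scg3, Vgf and Pcsk2 overlapped between genotypes. For each of the 5 genes without overlap the exact two-sided permutation test gave p = 0.333, the smallest that 2 libraries against 2 can give. These ratios are thus descriptions of 4 libraries, and the share of all genes without overlap on this scale was not computed.

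**Figure D4:**
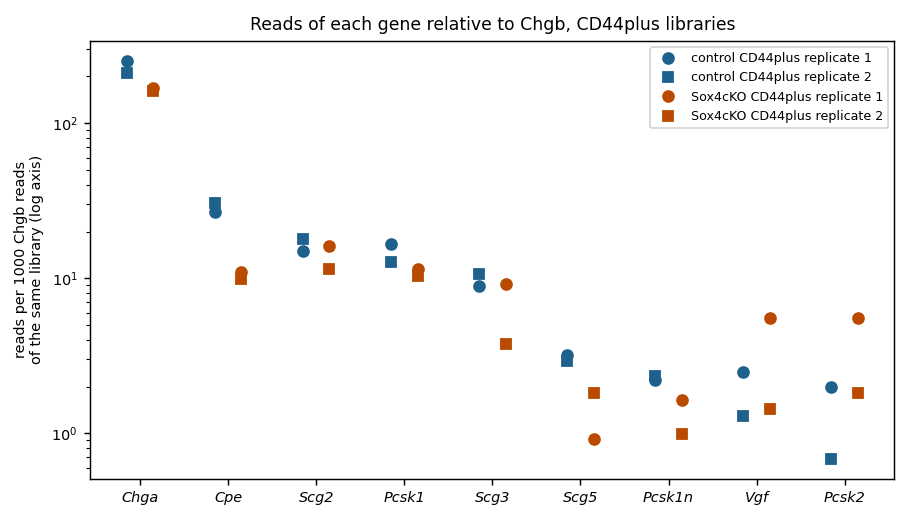
Reads of each gene per 1000 Chgb reads of the same library (log axis) in the 4 CD44plus libraries, control in blue and Sox4cKO in orange, circles for replicate 1 and squares for replicate 2. Cpe lies at 26.8 to 30.4 in control and at 9.93 to 11 in Sox4cKO, while Scg2, Scg3, Vgf and Pcsk2 overlap.

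The gate comparison asks which of these genes are richer in crypt-enriched than in villus-enriched epithelium. In control animals edgeR on 8 libraries called 4 of the 10 members higher in CD44plus (Chga, Chgb, Pcsk1 and Cpe), against 2.01% of all genes, and none lower. The median log2 difference was 2.43, against -0.19 over all genes. With the animal as a block, since both gates came from the same animals, edgeR called 5 members higher, Pcsk1n in addition, against 7.37% of all genes. It called 1 of 10 members lower, Pcsk2, which is close to the 10.5% of all genes called lower. Leaving out any 1 of the 8 libraries leaves 1 library in a group. The number called then moved with the library left out, for the members and for all genes. The members' median log2 difference in those fits ran from 2.36 to 2.65, against -0.23 to -0.056 over all genes. This comparison shares its control CD44plus libraries with the genotype comparison, so that the 2 are not independent.

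Chgb stood at 61.3 and 88.8 CPM in control CD44minus against 2503 and 2669 CPM in CD44plus, 34.4-fold higher in the crypt-enriched gate (log2 difference 5.10, SE 1.01, edgeR adjusted p = 0.0321). Chga stood at 27.6 and 40.1 CPM against 633 and 566 CPM, 17.6-fold higher (4.14, SE 0.76, edgeR adjusted p = 0.0221). These 2 granin genes were clearly read in both gates, above the background predicted in every library. Cpe lay at 2.69 and 6.29 CPM against 67 and 81.1 CPM (15.8-fold, edgeR adjusted p = 0.014), and its 4 reads in control CD44minus replicate 1 were at the predicted background of 4.34. Pcsk1 lay at 4.72 and 3.14 CPM against 41.2 and 34 CPM (9.7-fold, edgeR adjusted p = 0.0499). Its 7 and 8 reads in control CD44minus were under the 10.3 and 10.2 reads predicted as background, so the fold rests on a level that background could supply. Pcsk1 was no longer called with DESeq2's size factors, with library totals or with Rn45s left out, and the other 3 genes were.

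The other members were less separated by gate. Scg2 had a log2 difference of 1.58 (edgeR adjusted p = 0.168) and Scg3 of 1.49 (edgeR adjusted p = 0.237), each without overlap between the gates in control. Scg5, at 10.1 and 2.75 CPM in CD44minus and 7.95 and 7.85 CPM in CD44plus, overlapped. Pcsk1n had 96 reads in control CD44plus against 1 in control CD44minus, summed over the libraries of each group. After scaling for depth the ratio was 23.2, with an exact 95% counting interval from 4.07 to 926 that leaves out the spread between animals. In the fit of 8 libraries its log2 difference of 4.30 had an interval from -0.31 to 8.90 (edgeR adjusted p = 0.219).

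Pcsk2 and Vgf lay the other way. Pcsk2 was read at 17.5 and 17.3 CPM in control CD44minus and at 5 and 1.83 CPM in control CD44plus (log2 difference -2.32, SE 0.93, edgeR adjusted p = 0.176). With the animal as a block it passed (-2.47, edgeR adjusted p = 0.0198), in a fit that called 10.5% of all genes lower. Vgf was read at 14.8 and 8.26 CPM against 6.25 and 3.47 CPM (-1.23, SE 1.09, edgeR adjusted p = 0.443). Both genes are known in neurons. Markers of enteric neurons (10 genes, all of them read in 4 of the 8 libraries) summed to 132 to 191 CPM in control CD44minus, 72.6 to 82.4 CPM in control CD44plus, 41.1 to 213 CPM in Sox4cKO CD44minus and 40.2 to 59.7 CPM in Sox4cKO CD44plus. Those of enteric glia (4 genes) summed to 31.1 to 57.3 CPM, 10 to 14.7 CPM, 7.63 to 69.3 CPM and 3.88 to 13.9 CPM in the same groups. The CD44minus library with the least neuronal signal was Sox4cKO replicate 2, with Vip and Tubb3 at 0 reads. Pcsk2 and Vgf were there at 3.54 and 1.09 CPM, their lowest in that gate. Scg2, Scg3, Pcsk1 and Scg5 were also at their lowest of the gate there, at 4.36, 3.81, 1.36 and 1.91 CPM. Chgb and Cpe were not, and Chga was at its highest (59.9 CPM). Vip was at 0 reads in control CD44minus replicate 2 as well, where Pcsk2 was at 17.3 CPM. Predicted background moved with these values, from 18.2% of gene reads in Sox4cKO CD44minus replicate 1 to 0.819% in replicate 2. The cells were sorted for CD326, an epithelial marker, and whether neurons remained in the sort was not measured. The part of neuronal RNA and of background in the Pcsk2 and Vgf values was not tested.

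**Figure D5:**
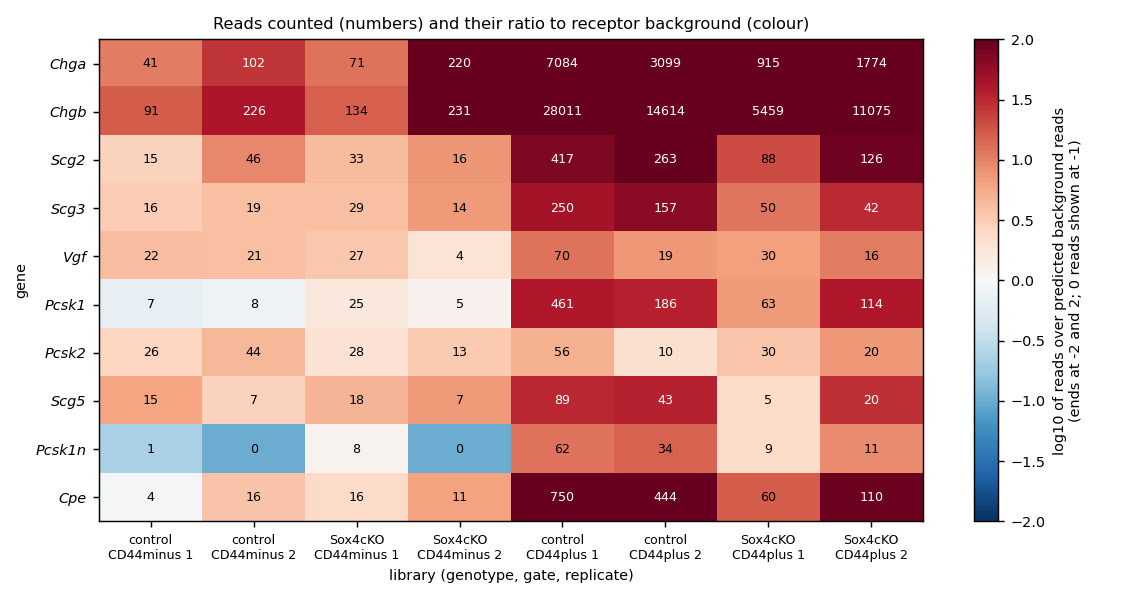
Reads of each gene (rows, numbers in the cells) in the 8 libraries (columns), coloured by the log10 ratio of these reads to predicted background reads. The prediction is the receptor reads per coding kb times the exon length of the gene. The Chga and Chgb rows lie above background in all libraries, while Pcsk1 (7, 8, 25 and 5 reads) and Pcsk1n (1, 0, 8 and 0 reads) in the 4 CD44minus columns lie at or near it.

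By its Poisson interval, the number of members above predicted background was 7, 8, 9 and 7 of 10 in the CD44minus libraries and 10, 9, 9 and 10 of 10 in the CD44plus libraries. The intervals cover counting error only, since reads carry no molecular identifiers. Pcsk1n was at 0 reads in control CD44minus replicate 2 and in Sox4cKO CD44minus replicate 2, where a count of 0 allows up to 3 reads, that is 1.18 and 0.817 CPM on the TMM scale of the other values.

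In Sox4cKO animals the log2 gate difference, CD44plus over CD44minus, was lower than in control for 9 of the 10 members. The exception was Pcsk2 (-2.32 in control, -1.46 in Sox4cKO). In size without regard to sign it was smaller for 8. Vgf (-1.23 in control, -1.27 in Sox4cKO) and Scg5 (0.32 and -1.98) were the exceptions. Chgb still lay at 789 and 1049 CPM in CD44plus against 66.4 and 62.9 CPM in CD44minus, 14.2-fold higher (log2 difference 3.83, SE 1.01, edgeR adjusted p = 0.0799). Chga was at 132 and 168 CPM against 35.2 and 59.9 CPM (1.66, SE 0.76, edgeR adjusted p = 0.275), and Cpe at 8.68 and 10.4 CPM against 7.92 and 3 CPM (0.86, SE 0.62, edgeR adjusted p = 0.444). No member passed edgeR's adjusted test, against 2.59% of all genes. At an unadjusted p under 0.05 it counted 2 members (Chga and Chgb), against 17.7% of all genes, while DESeq2 called 2 members (7.85% of all genes) and limma-voom 1 (0.666% of all genes). Without Sox4cKO CD44minus replicate 1 edgeR called 3 members higher in CD44plus (Chgb, Pcsk1 and Cpe), against 8.45% of all genes called higher. Without replicate 2 it called 2 higher (Chga and Chgb) and 2 lower (Pcsk2 and Scg5), against 40.9% of all genes called in either direction, so that the members' share, 4 of 10, was close to that of all genes. The median log2 difference of the 10 was -0.19, against -0.48 over all genes. It turned to 1.44 (all genes 0.13) without Sox4cKO CD44minus replicate 1, to -0.88 (all genes -0.19) without replicate 2 and to 0.031 (all genes -0.43) without Sox4cKO CD44plus replicate 2. Scg5 lay at 0.723 and 1.89 CPM in CD44plus against 8.91 and 1.91 CPM in CD44minus, so the groups nearly touched. These values rest on 5 and 20 against 18 and 7 reads. Its log2 difference of -1.98 had an interval from -4.39 to 0.42 (edgeR adjusted p = 0.366).

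In the villus-enriched gate the genotypes were not separated. Control and Sox4cKO libraries held 27.6 and 40.1 against 35.2 and 59.9 CPM of Chga, and 61.3 and 88.8 against 66.4 and 62.9 CPM of Chgb. The log2 fold changes of the 10 members ranged from -1.02 (Pcsk2) to 2.66 (Pcsk1n, on 1 and 0 against 8 and 0 reads), with a median of -0.12 against 0.19 over all genes. That median was -1.60 with 9 of 10 negative (all genes -0.19) without Sox4cKO CD44minus replicate 1 and 0.37 with 2 of 10 negative (all genes 0.009) without replicate 2. It was 0.011 and 0.028 without control CD44minus replicate 1 and replicate 2. The ranges of 1 member, Pcsk2, did not overlap, against 12.5% of all genes in either direction. edgeR called 0 members and 0% of all genes, and at an unadjusted p under 0.05 it counted 0 members against 0.568% of all genes. DESeq2 and limma-voom called 0 members as well. Without Sox4cKO CD44minus replicate 1 edgeR called 2 members lower (Scg2 and Vgf), against 10.2% of all genes called lower and 37.6% in either direction, and without replicate 2 it called 0 members and 0% of all genes. The intervals were wide here: for Chga, which was well read, the log2 fold change of 0.49 had an interval from -1.12 to 2.10.

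Whether the genotype difference itself differed between gates was tested in the same fit. The median of this difference was -2.23 on the log2 scale, against -0.37 over all genes, a negative value meaning a larger deficit in CD44plus. It was -0.63 (all genes 0.015) without Sox4cKO CD44minus replicate 1 and -1.84 to -2.45 without any other library. With the animal as a block, an alternative chosen after seeing the data, it was -2.10 (all genes -0.20), edgeR called 0 members and Vgf turned positive (0.50). No member passed edgeR's adjusted test and 0% of all genes did, and DESeq2 and limma-voom called 0 members. At an unadjusted p under 0.05 edgeR counted 3 of 10 members, against 0.245% of all genes. They were Cpe (-3.12, SE 0.89), Chga (-2.49, SE 1.07) and Pcsk1 (-2.68, SE 1.13), of which Pcsk1 rests on CD44minus reads at background in 3 of 4 libraries. Without Sox4cKO CD44minus replicate 1 edgeR called 1 member, Chga, against 1.26% of all genes. For Chgb the difference was -1.27 with an interval from -4.26 to 1.72, so that a similar deficit in both gates was not separated from one in CD44plus alone.

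Beyond the 10 genes, a companion list of 32 genes for prohormone maturation and granules was read, of which 31 were tested. In CD44plus 20 of the 31 had negative genotype differences and 11 positive ones, with a median log2 fold change of -0.18. edgeR called 0 of them on 8 libraries and 1, Ptprn2, in the 4-library fit (adjusted p = 0.0344), against 0.0997% of all genes there. Ptprn2, which encodes a granule membrane protein of the phosphatase family, gave 173 and 208 CPM for control CD44plus, 62.5 and 65.8 for Sox4cKO (log2 fold change -1.57, SE 0.65). The deficit of the 10 members was thus larger than the median of this list, a comparison given without a test.

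Genes that trim and modify peptide ends had 7 of 7 negative estimates with a median of -0.73. Among them Pam, the enzyme that amidates the end of many gut peptides, gave 68.7 and 62.3 CPM for control CD44plus, 21.5 and 26.5 for Sox4cKO (-1.44, SE 0.51, edgeR adjusted p = 0.0661 in the 4-library fit). Pam was also the only companion gene called between gates in control, where it was higher in CD44plus. That is 1 of 31 genes, against 2.01% of all genes called higher, so the call says little about the list. Cpm, a membrane carboxypeptidase, was at 44.2 and 38.9 against 16.3 and 22.3 CPM (-1.10, SE 0.51). In the granule group 11 of 17 estimates were negative with a median of -0.18. Scgn, a calcium-binding protein of endocrine cells, was at 17.2 and 18.3 against 4.34 and 5.68 CPM (-1.82, SE 0.80), and Cadps, a priming factor for granule release, at 18.8 and 19 against 9.69 and 6.63 CPM (-1.21, SE 0.67).

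The other proprotein convertases, most of which act in the general secretory pathway of all cells, did not lie lower as a group. They had 2 negative and 5 positive estimates with a median of 0.061. Furin gave 111 and 154 CPM for control CD44plus, 148 and 247 for Sox4cKO (0.58, SE 0.80). None of the group passed edgeR's test.

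Markers of enteroendocrine cells had mostly negative estimates in the same gate. Of 10 hormone genes 8 had negative genotype differences in CD44plus (median -1.30), and of 11 endocrine transcription factor genes all 11 did (median -1.56). edgeR called none of either list on 8 libraries and 2 of each in the 4-library fit, against 0.0997% of all genes there. Summed levels were 1719.5 and 2849.6 CPM in control against 377 and 615 CPM in Sox4cKO for hormones. Gip alone gave 1212 and 2197 CPM of the control sums and 183 and 255 CPM of those of Sox4cKO. For the factors the sums were 259.8 and 313 CPM against 86.9 and 100.4 CPM. Markers of mast cells, which also hold granules, summed to 322 and 449 CPM for control CD44plus against 402 and 1382 for Sox4cKO. Kit alone gave 237 and 306 CPM of these control sums and 247 and 709 CPM of those of Sox4cKO. T cell markers summed to 1252 and 1851 against 1266 and 3202 CPM. The mast cell and T cell sets were both highest in Sox4cKO replicate 2. In that library 5 members (Chga, Chgb, Pcsk1, Scg5 and Cpe) were higher and 5 (Scg2, Scg3, Vgf, Pcsk2 and Pcsk1n) lower than in Sox4cKO replicate 1. The part of mast cell and T cell RNA in the result was not tested.

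The members differed in how far they followed one another over the 8 libraries. Against the mean standardised profile of the other 9 members, Pearson's r was 0.922 for Scg3, 0.919 for Scg2, 0.903 for Pcsk1, 0.856 for Pcsk1n and 0.813 for Cpe. It was 0.555 for Scg5, 0.543 for Chga and 0.531 for Chgb, and the lowest values were 0.294 for Vgf and -0.220 for Pcsk2. The libraries share gates, depth and background, and r is given as a description only. Outside the list, the 5 genes most like the mean profile of the 10 were 1700086L19Rik (0.970), Zfp462 (0.963), Rfx3 (0.962), Pax6 (0.949) and Rad9b (0.944). Of these Pax6 and Rfx3 encode transcription factors known in endocrine cells. Pax6 stood at 31.1 and 40.5 CPM for control CD44plus, at 5.64 and 7.11 for Sox4cKO and at 3.27 to 14.8 CPM in CD44minus, and Rfx3 at 41.3 and 40 CPM, at 24.7 and 26.2 CPM and at 15 to 27.7 CPM.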

How the data were processed

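The authors deposited 1 table of raw read counts per library, with no normalization; per the submitters' processing notes the tools were bcl2fastq 2.17.4, Trimmomatic 0.36, STAR 2.2.5b and HTSeq 0.6.1p1 with build mm10, and per the labels' protocols a stranded pico-input total RNA kit was used. The counting's strand setting and annotation are not given in the sources used here. HTSeq's summary lines were left out of totals; 64.6% to 96.6% of placed reads were counted to no gene.

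Counts were fitted with edgeR 4.0.16 (R 4.3.3) by the quasi-likelihood test on 8 libraries in 4 groups, with TMM scaling, filterByExpr (minimum count 10) and Benjamini-Hochberg adjustment at 0.05 over 20427 genes; the scripts were tested on simulated data. Alternatives were other scalings and filters, DESeq2 1.42.0, limma-voom (limma 3.58.1), fits of the 4 libraries compared, blocks, background subtraction and leaving out libraries. The background of a gene is its exon length times the reads per coding kb of the receptor genes. Exon and coding lengths, positions and names came from GENCODE vM21 and RefSeq on GRCm38, which matched 98.5% of symbols, and promoters from RefSeq.

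The 10 members, the companion list and the marker lists were chosen with earlier results of these data known. Genes named outside the members were Sox4, Pam and Furin, the 6 companion genes with the smallest unadjusted p in CD44plus (1 of them is not reported here), and the 5 genes most like the members' mean log2 CPM (prior count 2). Replicate numbers come from the labels. Each deposited table is named with an animal number that recurs in the other gate, so gates are paired by animal; deviations from group means correlated between gates at 0.103 in control and 0.526 in Sox4cKO.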

Additional observations from a re-analysis of the deposited data

How the results depend on the processing

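In CD44plus the genotype difference kept its sign in 226 of 230 member values over the alternatives. The 4 exceptions were Pcsk2, whose 8-library values ran from -1.0 to 0.75 when 1 library was left out and which gave 0.74 and 0.31 in the 4-library fit without control replicate 1 and without Sox4cKO replicate 2. Members called in CD44plus, 0 on 8 libraries, were 4 in the 4-library fit and 0 to 2 without 1 library of the 8 (2, Cpe and Scg2, without Sox4cKO CD44minus replicate 1; 1, Cpe, without its replicate 2). They were 6, 6, 8 and 7 in the 4-library fit without control replicate 1, control replicate 2, Sox4cKO replicate 1 and Sox4cKO replicate 2. With the replicate number as a block 1 member was called, although control and Sox4cKO animals share only the number (deviations correlated at 0.275 in CD44plus and 0.6 in CD44minus). The animal as a block, which pairs the gates, gave 5 members higher (7.37% of all genes) and 1 lower (10.5% of all genes) in control. It changed 1 sign, Pcsk1n between gates in Sox4cKO (0.12). The control gate count of 4 was 3, without Pcsk1, with DESeq2 size factors (2.74% of all genes called), library totals (10.2%) or Rn45s left out (5.21%). It was 2 by limma-voom (0.24%) and 8 in a 4-library fit, which called 54.9% of 18006 genes. The Sox4cKO gate count of 0 was 2 with scaling by totals (9.98% of all genes called), DESeq2 (7.85%) or either background subtraction (8.41% and 10.1%). It was 1 by limma-voom (0.666%) or without Rn45s (4.98%). Without 1 library, the CD44minus count ran from 0 to 2 and that of the difference between gates from 0 to 1. A fit without replicate 2 of Sox4cKO in both gates was chosen after seeing the data. So were the coding-length background, the animal block for the difference between gates and the 4-library fits that leave out a library. Without replicate 2 of Sox4cKO in both gates, the members' median log2 difference was 2.42 (all genes -0.18) in the control gate comparison. It was -0.71 (all genes -0.25) in the Sox4cKO gate comparison and -2.36 (all genes 0.10) for the difference between gates.

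Signs of the other comparisons held in 179 of 199 (CD44minus), 195 of 200 (control gate), 184 of 199 (Sox4cKO gate) and 190 of 200 (difference) member values; the cause of each change was not tested. Scaling by totals also moved the median over all genes, from -0.19 to -0.77 (control gate), -0.48 to -0.72 (Sox4cKO gate), 0.19 to -0.12 (CD44minus) and -0.37 to -0.017 (difference). In CD44minus, ranges without 1 library were -0.46 to 0.067 for Chgb, -1.74 to 0.17 for Scg2, -1.25 to 0.67 for Scg3, -3.38 to 0.22 for Vgf, -1.49 to 1.69 for Pcsk1, -1.71 to 0.94 for Scg5, -3.79 to 6.53 for Pcsk1n and -0.69 to 0.95 for Cpe. Without replicate 2 of Sox4cKO in both gates, Scg2 was 0.16, Scg3 0.68, Vgf 0.24 and Scg5 0.55 there, and between gates in Sox4cKO Scg2 was -0.36 and Pcsk1 -0.44. Chga was -0.027 with scaling by totals, Scg3 0.063 with the coding-length background subtracted, Pcsk1 -0.20 and Cpe -0.056 by limma-voom, and Cpe -0.0019 without Rn45s. Between gates in control, Scg5 was -0.068 with DESeq2 size factors, -0.43 with totals, -0.063 by DESeq2, -0.052 with the coding-length background subtracted and -0.36 to 1.51 without 1 library. Between gates in Sox4cKO, ranges without 1 library were -0.40 to 1.49 for Scg2, -1.36 to 0.54 for Scg3, -2.33 to 1.39 for Vgf, -0.30 to 2.85 for Pcsk1 and -1.74 to 5.83 for Pcsk1n. Scg2 was also -0.056 with DESeq2 size factors, -0.45 with totals, -0.068 by DESeq2 and -0.048 in the 4-library fit; Pcsk1 was -0.30 with totals and Pcsk1n 0.95 by limma-voom and 1.51 with the coding-length background subtracted. For the difference between gates, Vgf was 0.59 by limma-voom, 0.32 with the number block, 0.50 with the animal block, 0.014 with the coding-length background subtracted, 0.0015 without Rn45s and -1.06 to 2.62 without 1 library, and Pcsk1n -8.83 to 1.48. Pcsk1n gave no value in the 4-library CD44minus and Sox4cKO gate fits, where too few reads passed the filter. Depth limits the CD44minus gate most, where 3 reads are 0.817 to 2.02 CPM, against 0.268 to 0.548 CPM in CD44plus.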
